A study of Mus musculus with 3 samples.

Results

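Muscle miRNAs were followed in small-RNA libraries of a melanoma line and of exosomes. The 5 mature miRNAs miR-1a-3p, miR-133a-3p, miR-133b-3p, miR-206-3p and miR-208a-3p were taken by name from the 1915 mouse miRNAs that every library lists. The libraries came from exosomes released by B16 cells, from exosomes released by JB6 cells and from B16 cells themselves, with 1 library each. B16 is a mouse melanoma line, labelled as skin of strain C57BL/6J with melanoma. JB6 is a mouse skin line whose labels give a normal state and strain BALB/c, so line, strain and disease state change together between the exosome libraries. A library of JB6 cells was not analysed here, so the JB6 vesicles cannot be set against the cells that shed them. Exosomes are small vesicles that cells release into their medium, and ultracentrifugation had been used to collect them. Neither the culture medium nor its serum is named in the labels. With 1 library a group no difference has a replicate check, and each interval covers counting error only, since reads that carry no molecular identifier may be copies of 1 molecule.

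miRNAs of striated muscle, often called myomiRs, are switched on by muscle transcription factors such as MyoD, Mef2 and SRF. miR-1 and miR-133 are made from shared transcripts in heart and skeletal muscle, where miR-1 promotes differentiation and miR-133 restrains SRF and keeps precursors dividing. miR-206 is a relative of miR-1 with the same seed, the stretch near the 5′ end that pairs with target mRNAs, and is known from skeletal muscle. Its hairpin lies beside that of miR-133b, a near-identical relative of miR-133a. miR-208a is carried in an intron of Myh6, the gene of a cardiac myosin heavy chain, and is known from heart.

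The mature sequences below are those that tell the members apart, with the seed (bases 2 to 8) in capitals. They are from RefSeq, build GRCm38.p6, which held 1623 of the 1915 entries and 3 of the 5 members. miR-208b-3p and miR-499-5p are shown because they are the other miRNAs of myosin genes.
miR-206-3p: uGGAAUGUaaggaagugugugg
miR-133b-3p: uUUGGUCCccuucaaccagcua
miR-208a-3p: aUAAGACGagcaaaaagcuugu
miR-208b-3p: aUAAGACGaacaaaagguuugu
miR-499-5p: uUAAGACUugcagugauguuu

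Counted from the 5′ end, miR-206-3p and miR-133b-3p have the same base at 4 of 22 positions. miR-208a-3p and miR-208b-3p share the whole seed and 19 of 22 positions. miR-499-5p matches miR-208a-3p at 6 of the 7 seed bases. Of the matched entries, 2 others hold the seed of miR-206-3p, miR-6349 and miR-6382, and both were listed at 0 in JB6 exosomes. The matched entry nearest to miR-206-3p over its whole length was miR-7210-3p, the same at 15 positions and also listed at 0 there. miR-1a-3p, the seed relative of miR-206-3p, and miR-133a-3p had no RefSeq sequence, so both searches left them out.

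The hairpins of miR-206 and miR-133b are shown next, with the 3p arm in capitals. They were chosen because reads of the capitals were listed for the first and not for the second.
Mir206: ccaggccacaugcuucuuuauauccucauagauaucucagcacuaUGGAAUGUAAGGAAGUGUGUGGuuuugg
Mir133b: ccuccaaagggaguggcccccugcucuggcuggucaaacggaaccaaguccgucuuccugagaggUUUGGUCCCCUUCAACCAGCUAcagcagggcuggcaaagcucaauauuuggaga

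In build GRCm38, Mir206 lies at chr1:20679010-20679082 and Mir133b at chr1:20682769-20682887, both on the + strand in exons of the long non-coding RNA Gm28653, with 3686 bases between them. miR-1a and miR-133a each have 2 copies. Mir1a-1 (chr2:180389048-180389124) and Mir133a-2 (chr2:180398379-180398482) lie on the + strand, 9254 bases apart, outside the other genes of the GENCODE annotation used. Mir133a-1 (chr18:10782909-10782976) and Mir1a-2 (chr18:10785481-10785552) lie on the - strand, 2504 bases apart, in introns of the antisense RNA Mir133a-1hg and opposite an intron of Mib1. The hairpin Mir1b spans Mir1a-2 on the other strand, at chr18:10785446-10785567. Mir208a lies at chr14:54949060-54949142 in an intron of Myh6, Mir208b at chr14:54975700-54975776 in an intron of Myh7, and Mir499 at chr2:155622880-155622958 in an intron of Myh7b.

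Depth set what could be seen. The miRNA reads summed to 45677 in the B16 exosome library, 4495956 in the JB6 exosome library and 7925726 in the B16 cell library, and 149, 389 and 559 miRNAs were listed above 0 in those libraries, which is 7.78%, 20.3% and 29.2% of the entries. The smallest listed count was 10 in each, so a listed 0 stands for up to 9 reads. As a share, that limit is 197 RPM in B16 exosomes, 2.002 RPM in JB6 exosomes and 1.14 RPM in B16 cells, where RPM is reads per 1000000 miRNA reads. A miRNA needed 984 reads in JB6 exosomes, or 1735 in B16 cells, for the same share to give 10 reads in B16 exosomes.

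A single muscle miRNA was frequent, in the JB6 exosome library. miR-206-3p had 16619 reads in the JB6 exosome library and was listed at 0 in the libraries of B16 exosomes and B16 cells. It held 0.370% of the miRNA reads of JB6 exosomes (exact Clopper-Pearson 95% interval 0.364 to 0.375) and ranked 31 of 389 listed miRNAs there. Its place was between miR-669c-5p (18001 reads) and miR-27b-3p (16823 reads) above, and miR-1964-3p (15721 reads) and miR-125b-5p (14498 reads) below. The opposite arm, miR-206-5p, was listed at 0 in all 3 libraries, so in JB6 exosomes the 3p arm had at least 1847 times the reads of the 5p arm, taking 9 reads for the listed 0.

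miR-133b-3p, the cluster partner whose hairpin lies in the same long RNA as that of miR-206, was listed at 0 in all 3 libraries, and so was miR-133b-5p. miR-1a-3p had a listed 0 in B16 exosomes, 21 reads in JB6 exosomes and 11 reads in B16 cells, at ranks 309 and 534 of the libraries that list it. miR-133a-3p was listed at 0 in the B16 exosome library, had 25 reads in the JB6 exosome library and was at 0 in the B16 cell library. Both stood in the thin tail of the JB6 exosome library, far under miR-206-3p. miR-208a-3p was listed at 0 in all 3 libraries.

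**Figure D1:**
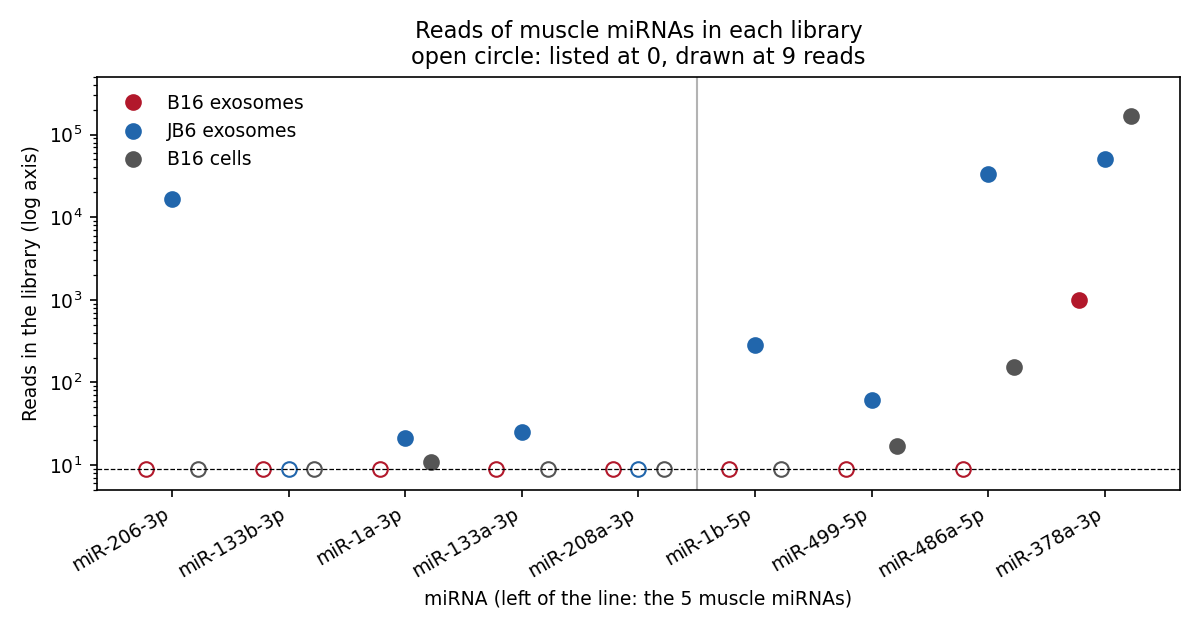
Reads (log axis) of the 5 muscle miRNAs, left of the vertical line, and of 4 relatives or other muscle-associated miRNAs in B16 exosomes, JB6 exosomes and B16 cells; an open circle is a listed 0 drawn at 9 reads. miR-206-3p stands at 16619 reads in JB6 exosomes, while the other members lie at 25 reads or fewer in every library.

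By member, then, B16 exosomes listed none of 5, JB6 exosomes 3 of 5 and B16 cells 1 of 5. Summed over the members, the reads were 16665 in JB6 exosomes and 11 in B16 cells, and miR-206-3p made up 99.7% of the sum in JB6 exosomes. The label of muscle miRNAs therefore rests, in these libraries, almost wholly on a single skeletal-muscle member. In share, miR-1a-3p held 4.67 RPM in JB6 exosomes and 1.39 RPM in B16 cells. miR-133a-3p held 5.56 RPM in JB6 exosomes, against a limit of 1.14 RPM in B16 cells.

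**Figure D2:**
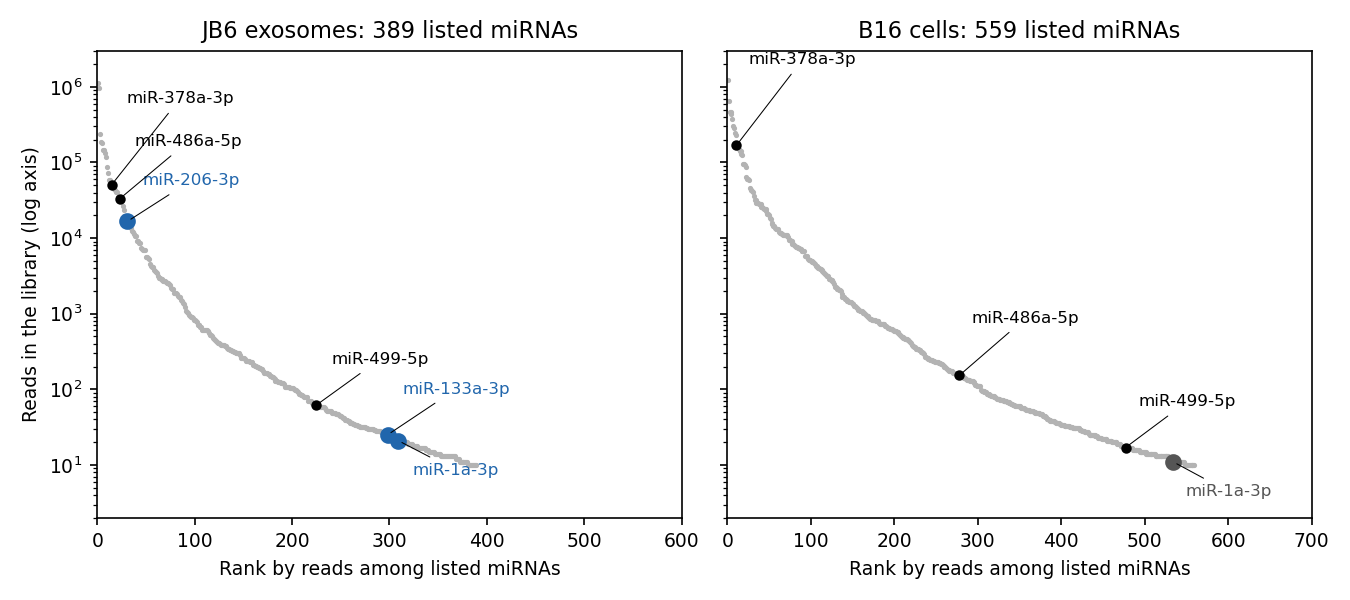
Reads (log axis) against rank for every listed miRNA of JB6 exosomes (left, 389 miRNAs) and B16 cells (right, 559 miRNAs), with members as large coloured points and 3 other muscle-associated miRNAs as black points. miR-206-3p is at rank 31 of JB6 exosomes, while miR-133a-3p and miR-1a-3p are at ranks 298 and 309, and miR-1a-3p is at rank 534 of B16 cells.

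Whether cluster partners go together was read within a library, where no scaling enters. In JB6 exosomes miR-206-3p had at least 1847 times the reads of miR-133b-3p, with 9 reads taken for the listed 0, and the limit of the counting interval nearest to 1 was 972. Because miR-133a-3p and miR-133b-3p are nearly the same, reads of one could be listed under the other. Set against the 25 reads of miR-133a-3p, miR-206-3p was still 665-fold more frequent (450 to 1028). Of the pair on chromosome 1, reads were listed from its first hairpin alone.

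The partners miR-1a-3p and miR-133a-3p stood at like levels in JB6 exosomes. Their read ratio was 0.840 (0.447 to 1.56), so their difference was within counting error, on 21 and 25 reads. In B16 cells 11 reads of miR-1a-3p against a listed 0 gave a ratio of at least 1.22, whose interval reached from 0.460 to 3.34, so no difference was detectable. In B16 exosomes neither was listed. miR-206-3p had 791 times the reads of its seed relative miR-1a-3p in JB6 exosomes (518 to 1279).

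An entry of the same locus bears on the miR-1a count. miR-1b-5p had 285 reads in the JB6 exosome library and was listed at 0 in both B16 libraries, while miR-1b-3p was listed at 0 throughout. In JB6 exosomes miR-1b-5p had 13.6 times the reads of miR-1a-3p (8.71 to 22.3). No label or header says whether the counting used strand, and without strand, reads from Mir1a-2 and from Mir1b on the opposite strand cannot be told apart. With both entries summed, which was tried after the values were seen, miR-1 had 12.2 times the reads of miR-133a-3p in JB6 exosomes, so the like levels of these partners hold only when miR-1b-5p is kept apart. Both miR-1a-3p and miR-1b-5p are uncertain as separate entries.

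Other neighbouring hairpins gave a measure of how often partners part in the JB6 exosome library, a comparison added after the values were seen. Hairpins were used only where each arm was an entry with a sequence of its own. Others were skipped before pairing, so a skipped hairpin can lie between paired ones. Of 100 such pairs of hairpins on the same strand within 10000 bases, 16 had 1000 or more reads in the larger hairpin. In 5 of these 16, Mir206 and Mir133b included, the smaller was listed at 0. In the other 11 the larger had 2.26 to 290 times the reads of the smaller. In all 16 the larger had over 2-fold the reads, and the bound for Mir206 and Mir133b lay above the ratio of each of those 11 pairs. Some hairpins stand in more than 1 pair, so the pairs are not independent.

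**Figure D3:**
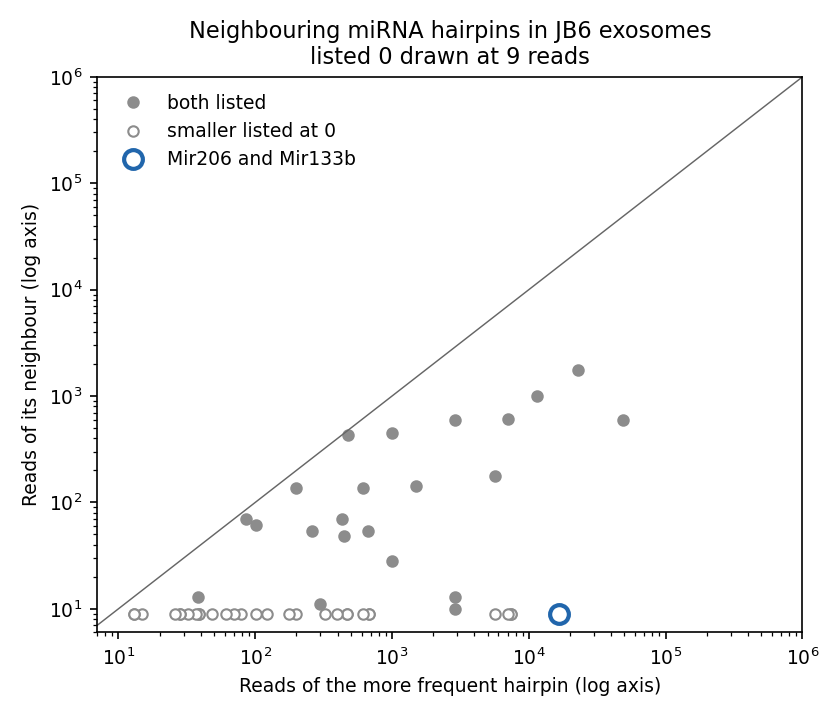
Reads in JB6 exosomes of the more frequent hairpin (horizontal, log axis) and the less frequent hairpin (vertical, log axis) of neighbouring pairs with at least 1 listed hairpin; open circles have the less frequent hairpin listed at 0, drawn at 9 reads, and the line marks equal reads. Mir206 and Mir133b (blue ring) lie at 16619 reads and a listed 0, at the right end of the row of pairs with a listed 0.

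The B16 exosome library was first set against the B16 cell library. No member could be compared. Of the 5, 4 were listed at 0 in both, and miR-1a-3p had a listed 0 in B16 exosomes against 11 reads in B16 cells, under the minimum of 30 reads over the pair. At the share it had in the cells, miR-1a-3p would have given 0.0634 reads in the exosomes, so a difference was not detectable at this depth. Across all miRNAs with 30 reads over this pair, 8.53% of 422 were higher and 7.82% lower by the size rule, which asked for a ratio of shares of at least 2-fold with an exact 95% interval that excluded 1.

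The B16 exosome library was next set against the JB6 exosome library. miR-206-3p, with a listed 0 in B16 exosomes against 16619 reads in JB6 exosomes, was at least 18.8-fold lower in B16 exosomes, and the limit of the counting interval nearest to 1 was 9.88-fold. At the JB6 exosome share, 169 reads of it would have been found in the B16 exosome library, against the 10 that the file would list. Of the 5 members this 1 was lower and none was higher, while 2 had too few reads and 2 were listed at 0 in both. The background was 11.7% lower and 31.3% higher of 300 miRNAs. miR-1a-3p and miR-133a-3p, at their JB6 exosome shares, would have given 0.213 and 0.254 reads in B16 exosomes, so a difference in either was not detectable at this depth.

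JB6 exosomes were last set against B16 cells, the deep libraries, where line and material differ together. miR-206-3p was at least 3255-fold higher in JB6 exosomes, with a limit nearest to 1 of 1714-fold. miR-1a-3p, with 21 reads in JB6 exosomes and 11 in B16 cells, had a share 3.37-fold higher (1.55 to 7.73), and it met the size rule on 32 reads in all, just above the minimum. miR-133a-3p, with 25 reads in JB6 exosomes against a listed 0 in B16 cells, was at least 4.90-fold higher with a limit of 2.21-fold, but it fell under the minimum of 30 reads. miR-133b-3p and miR-208a-3p were listed at 0 in both. By the rule 2 of the 5 members were higher and none was lower. The background, which counts only the 501 miRNAs with 30 reads over the pair, was 26.1% higher and 60.7% lower.

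**Figure D4:**
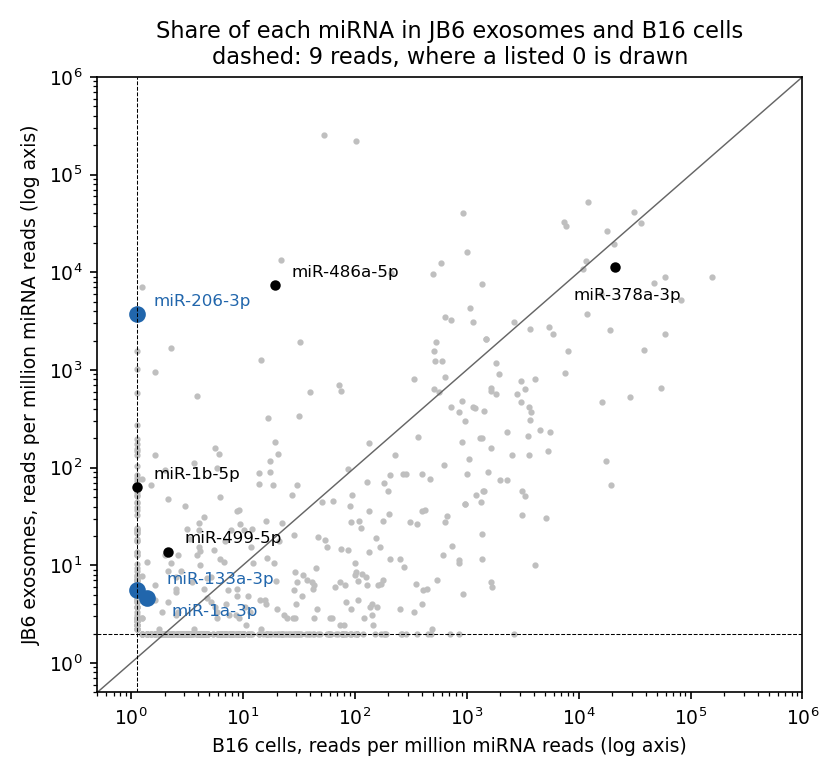
Share of miRNA reads, in RPM, in JB6 exosomes (vertical, log axis) and B16 cells (horizontal, log axis) for every miRNA listed in either; the diagonal marks equal shares, the dashed lines mark 9 reads where a listed 0 is drawn, and members are large blue points. miR-206-3p sits on the dashed line of B16 cells at 3696 RPM in JB6 exosomes, whereas miR-1a-3p and miR-133a-3p lie near the lower left corner.

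The relatives and opposite arms added little to the 5 members. Of these 10 entries, miR-1b-5p was the sole one listed in any library. It was at least 55.8-fold higher in JB6 exosomes than in B16 cells, and was not resolved between the exosome libraries because its JB6 share predicts 2.90 reads in B16 exosomes. The passenger arms of miR-1a, miR-133a, miR-133b and miR-208a, and both arms of miR-208b, which sits in the slow cardiac myosin gene Myh7, were listed at 0 throughout.

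A wider list of 8 muscle-associated miRNAs, some of them also expressed in other tissues, was less uniform. miR-499-5p, the Myh7b miRNA whose seed resembles that of miR-208a, had a listed 0 in B16 exosomes, 62 reads in JB6 exosomes and 17 reads in B16 cells, and its share was 6.43-fold higher in JB6 exosomes than in B16 cells (3.71 to 11.7). Its opposite arm miR-499-3p was listed at 0. miR-206-3p had 268 times the reads of miR-499-5p in JB6 exosomes (209 to 350). Of the miRNAs of myosin genes, miR-499-5p was thus at rank 225 of the 389 listed in JB6 exosomes, above miR-133a-3p and miR-1a-3p, and miR-208a and miR-208b were at 0.

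miR-486a-5p, which muscle and red blood cells share, had a listed 0 in B16 exosomes, 32994 reads in JB6 exosomes and 153 reads in B16 cells. In JB6 exosomes it had 1.99 times the reads of miR-206-3p (1.95 to 2.02). miR-486b-5p had the same counts in each library, so the 2 entries are uncertain as separate miRNAs. miR-378a-3p, which is encoded in the metabolic regulator gene Ppargc1b and is not confined to muscle, had 999 reads in B16 exosomes, 51099 in JB6 exosomes and 168291 in B16 cells. Its shares were 2.19%, 1.14% and 2.12%, so it was frequent in all 3 libraries.

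By the size rule, 5 of the 8 were higher and 1 was lower in JB6 exosomes than in B16 cells, with 1 neither and 1 listed at 0 in both, beside 26.1% higher and 60.7% lower of all 501 miRNAs. The higher ones were miR-499-5p and the 4 miR-486 entries, of which miR-486a-5p and miR-486b-5p have identical counts and give the same value under each name, and the lower one was miR-378a-5p, with 11 reads in JB6 exosomes against 1154 in B16 cells. In B16 exosomes against JB6 exosomes 4 were lower, all of them miR-486 entries, and none was higher, beside 11.7% lower and 31.3% higher of all 300 miRNAs. In B16 exosomes against B16 cells none met the rule, beside 8.53% higher and 7.82% lower of all 422 miRNAs. There 1 was neither, 3 were not resolved, 2 were under the minimum and 2 were listed at 0 in both.

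The miRNAs most like miR-206-3p over the 3 libraries were sought among 163 miRNAs, itself included, that had 30 or more JB6 exosome reads and were listed at 0 in the B16 exosome library, by how near their ratio of JB6 exosomes to B16 cells was. They were miR-669c-5p, miR-125b-1-3p, miR-543-3p, miR-486b-3p, miR-409-3p, miR-615-3p, miR-486a-3p and miR-676-3p. miR-669c-5p, of the Sfmbt2 locus, was nearest, with 18001 JB6 exosome reads and 0 listed in either B16 library, a ratio to B16 cells of at least 3526. The ratio of miR-676-3p, the last of the 8, was at least 514. With 3 libraries, and bounds in place of values where B16 cells list 0, this likeness is a description only. In all, 80 miRNAs were listed in JB6 exosomes and at 0 in both B16 libraries, and miR-206-3p had the second highest count of these.

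Markers of other tissues stood beside miR-206-3p in the JB6 exosome library. The 4 liver miRNAs summed to 0.311% of the miRNA reads in B16 exosomes (3 of 4 listed), 47.0% in JB6 exosomes (4 of 4) and 0.0789% in B16 cells (4 of 4), led in JB6 exosomes by miR-122-5p and miR-148a-3p. The 4 did not move alike, since in JB6 exosomes against B16 cells the share of miR-192-5p was 2.34-fold higher and that of miR-194-5p had a ratio of 0.257, with 127 reads against 870, which turned to above 1 with DESeq2 size factors. The 4 red-cell miRNAs were at 0 in B16 exosomes, summed to 0.748% in JB6 exosomes (3 of 4 listed, with miR-144-5p at 0) and to 0.00209% in B16 cells (2 of 4). Nearly all of that sum in JB6 exosomes is miR-486a-5p, which also stands in the wider muscle list. Without it, the 3 other red-cell miRNAs had 626 reads in JB6 exosomes, 606 of them from miR-451a, and 13 reads in B16 cells. The part of such material in the miR-206-3p count was not tested.

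The 5 smooth-muscle and fibroblast miRNAs held 8.06% in B16 exosomes (4 of 5 listed), 3.46% in JB6 exosomes (5 of 5) and 3.83% in B16 cells (4 of 5), most of it miR-143-3p. In JB6 exosomes against B16 cells miR-214-3p was at least 174-fold higher and miR-199a-5p 6.58-fold higher, while miR-145a-5p was 75.9-fold lower. The 4 neural miRNAs held 1.38% (3 of 4), 0.272% (2 of 4, with miR-124-3p and miR-138-5p at 0) and 2.33% (3 of 4) in the same libraries. The 5 leukocyte miRNAs were at 0 in B16 exosomes, and held 0.00349% in JB6 exosomes (4 of 5, with miR-223-3p at 0) and 0.00486% in B16 cells (2 of 5). The 3 melanocyte miRNAs held 0.182% in B16 exosomes (1 of 3) and 0.267% in B16 cells (2 of 3). In JB6 exosomes they held 0.000311% (1 of 3). miR-211-5p gave all 83 reads in B16 exosomes and 21080 of 21140 in B16 cells, and was at 0 in JB6 exosomes. miR-204-5p had 14 reads in JB6 exosomes, 60 in B16 cells and 0 in B16 exosomes, and miR-137-3p was at 0 throughout. Of the 3 melanocyte miRNAs, the reads in the B16 libraries were thus almost wholly miR-211-5p. Of 6 epithelial miRNAs, B16 exosomes listed none, JB6 exosomes 2 with 35 reads in all, and B16 cells 4 with 197. In JB6 exosomes miR-205-5p, a marker of skin epithelium, was at 0 with miR-141-3p, miR-200a-3p and miR-200c-3p, so the vesicles of this skin line held few epithelial marker reads.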

How the data were processed

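The authors deposited, for each library, a count of reads per mature miRNA that is not normalized, and an RPM value that, per the file headers, is a normalized value. Within a file the deposited RPM is the count times a constant, whose total is 847694 reads in B16 exosomes, 5626936 in JB6 exosomes and 8721363 in B16 cells. The listed miRNA reads were 5.39% of this total in B16 exosomes, 79.9% in JB6 exosomes and 90.9% in B16 cells. No label or header says what this total counts. Per the labels' protocols, RNA was extracted with Trizol and sequenced on an Illumina instrument. Of software and builds, bcl2fastq, BWA and mm10 are named in the submitters' processing notes. Adapter, strand and multi-match settings and the annotation release are not stated there.

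Shares are reads over all listed miRNA reads. Ratios of shares carry exact conditional binomial (Clopper-Pearson) 95% intervals, with a size rule of 2-fold, an interval that excludes 1 and 30 reads over the pair, and a listed 0 set at 9 reads. A miRNA whose bound misses the rule is not resolved. Calls were made over the whole table in 3 comparisons, and no test across libraries was possible with 1 library each. The procedure was tested on simulated data in which known changes were placed in frequent miRNAs only. That test says little about members listed at 0 or at few reads. Named miRNAs are the members, their arms and paralogues, the wider muscle list, the 8 most like miR-206-3p, its 2 neighbours by rank on each side and marker miRNAs. Others were picked after their values were seen. Members and lists were chosen with earlier results of these data known. Sequences came from RefSeq (GRCm38.p6) and loci from GENCODE (GRCm38, the assembly of mm10). Alternatives used edgeR 4.0.16 (TMM) and DESeq2 1.42.0 (size factors), with Python 3.11.15 and scipy 1.17.1.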

Additional observations from a re-analysis of the deposited data

How the results depend on the processing

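No paired analysis was possible because each group holds 1 library and no test was run. The direction of miR-206-3p held under each alternative tried. Its ratio of B16 exosomes to JB6 exosomes, at most 0.0533, was at most 0.0103 with TMM, 0.00818 with DESeq2 and 0.00359 with the authors' totals. With 3 reads for a listed 0 it was 0.0178. Its ratio of JB6 exosomes to B16 cells was at least 8291 with TMM, 19453 with DESeq2 and 2862 with the authors' totals. Summed with miR-1a-3p and miR-1b-3p it was 2667, and with 3 reads for a listed 0 it was 9766. The ratio of JB6 exosomes to B16 cells of miR-1a-3p was 8.57 with TMM and 20.1 with DESeq2. It was 2667 summed with miR-1b-3p and miR-206-3p, and 49.0 summed with miR-1b-5p. With a minimum of 100 reads it is not evaluated. The share of miR-206-3p in JB6 exosomes was 0.295% of the authors' total and 1.44% without the 10 most abundant miRNAs. With 3 reads for a listed 0, an alternative added after the data were seen, miR-206-3p had 5540 times the reads of miR-133b-3p in JB6 exosomes. Likewise miR-1a-3p had 3.67 times the reads of miR-133a-3p in B16 cells. A listed 0 can stand for up to 9 reads, so no value at 3 reads is a bound. Summed with miR-1b-5p, miR-1a-3p had 12.2 times the reads of miR-133a-3p in JB6 exosomes.

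Scaling set the balance of all calls. In B16 exosomes against B16 cells 36 were higher and 33 lower, or 69 in all, against 109 with TMM (16 higher, 93 lower) and 266 with the authors' totals (9 and 257). In B16 exosomes against JB6 exosomes 94 were higher and 35 lower, against 61 and 97 with TMM, 57 and 109 with DESeq2 and 40 and 153 with the authors' totals. In JB6 exosomes against B16 cells 131 were higher and 304 lower, against 165 and 202 with TMM and 204 and 134 with DESeq2. In the order of these comparisons, log2 ratios moved by -1.02, -2.37 and 1.35 with TMM, -0.13, -2.70 and 2.58 with DESeq2, -4.08, -3.89 and -0.19 with the authors' totals, and 0.06, -0.61 and 0.67 without the most abundant miRNAs. The depth of B16 exosomes limits every statement on miR-1a-3p, miR-133a-3p, miR-133b-3p and miR-208a-3p there.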

Other observations

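Neighbouring hairpins other than Mir206 and Mir133b also parted in JB6 exosomes. In 4 further pairs with 1000 or more reads in the larger hairpin the smaller was listed at 0, and all 4 lie on chromosome 12. Mir409 had 7462 reads, while its neighbours Mir541 and Mir412 were both listed at 0. Mir543 had 7009 reads beside Mir1193 at 0, and Mir127 had 5685 reads beside Mir434 at 0. With both hairpins listed, Mir501 had 2896 reads against 10 for Mir500 and 13 for Mir362, and Mir25, of the cluster with Mir93, had 48845 against 599. These pairs were picked after their values were seen.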
